A study of Mus musculus with 10 samples.

Results

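The p53 axis was described in LSK cells, the Lin-Sca-1+c-Kit+ fraction of bone marrow that holds the hematopoietic stem and early progenitor cells, by 10 genes out of 25078 in the count table. The genes were Trp53, which encodes p53, its inhibitors Mdm2 and Mdm4, and 7 established direct targets of p53, namely Cdkn1a, Ccng1, Phlda3, Trp53inp1, Sesn2, Zmat3 and Aen. They were picked by name for their place in the pathway, and all 10 were among the 18747 genes that had at least 1 count and were fitted. RNA-seq was compared between 5 CM mice (Cbfb56M/+/Mx1-Cre, carrying the induced Cbfb-MYH11 fusion allele of inv(16) leukemia) and 5 CM/miR-126Δ/Δ mice (Cbfb56M/+/miR-126flox/flox/Mx1-Cre), in which the miR-126 gene was deleted as well. Both groups received poly(I:C) to switch on the interferon-inducible Mx1-Cre, and LSK cells were sorted 6 weeks later, before leukemia. All mice had been bred onto C57BL/6, were induced as young adults and included females and males. Each library came from 1 mouse, every mouse carried the CM allele and the Cre, and no CM-free mouse was among them, so that the comparison is the loss of miR-126 on a CM background. Mx1-Cre also acts outside LSK cells, so the deletion was not limited to them.

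p53 is a transcription factor that is kept low in unstressed cells because Mdm2, a ubiquitin ligase, marks it for degradation and Mdm4 (also known as MdmX) masks its activation domain. Damage and other stress free p53, which then switches on genes for cell cycle arrest, DNA repair, apoptosis and metabolic restraint, and also Mdm2 itself, closing a feedback loop. In hematopoietic stem cells p53 is known for its part in quiescence and in the response to damage. Much of its control acts on the protein, which these data do not measure, so the transcripts of its targets are the nearest readout here. In bulk RNA, fewer cells that use a gene and less of its RNA per cell cannot be told apart.

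The start regions are shown first, since p53 acts on its direct targets by binding response elements, often near a start. RefSeq start windows on GRCm38.p6 (the mm10 assembly), from 250 bases before to 50 bases after an annotated start, were found for 8 of the 10 genes, in 11 windows, whereas Trp53inp1 and Zmat3 had no entry. The p53 half-site is a core C, 2 A or T bases and a core G, with 3 purines before and 3 pyrimidines after. It reads the same on both strands. It was present in 6 of these windows, belonging to Trp53, Mdm2, Cdkn1a, Ccng1 and Aen, and in 8.36% of all 32851 windows. The 2 windows of Aen overlap and hold the same half-site, which is thus counted in both. A full site was taken as a pair of half-sites side by side, with each core C and core G intact and at most 1 mismatch at the other bases. It was found in 2 of the 11 windows, those of Cdkn1a and Ccng1, and in 0.067% of all windows. In Ccng1 the mismatch fell on 1 of the 2 A or T bases between the core C and the core G. The 250 bases before these starts are printed 5′ to 3′ on the strand of the gene, with the full site in capitals.
Cdkn1a (plus strand, chr17:29090729-29090978): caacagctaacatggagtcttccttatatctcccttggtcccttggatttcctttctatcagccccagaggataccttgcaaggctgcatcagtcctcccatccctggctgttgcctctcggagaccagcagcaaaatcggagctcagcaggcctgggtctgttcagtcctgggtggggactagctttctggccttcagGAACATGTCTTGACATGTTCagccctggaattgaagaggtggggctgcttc
Ccng1 (minus strand, chr11:40755287-40755536): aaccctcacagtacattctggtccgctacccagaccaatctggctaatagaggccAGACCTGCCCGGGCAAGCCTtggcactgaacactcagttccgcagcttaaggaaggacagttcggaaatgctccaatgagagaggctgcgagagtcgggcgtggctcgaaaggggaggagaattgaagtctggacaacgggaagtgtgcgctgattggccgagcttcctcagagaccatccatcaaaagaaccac
In Cdkn1a the site covered chr17:29090928-29090947 and began 51 bases before this start. A second annotated start (chr17:29093769), whose own window held no half-site, lay 2841 bases downstream of the first base of the site. In Ccng1 it covered chr11:40755462-40755481 and began 195 bases before the start. These are matches of letters, and the absence of a match in the other windows says only that the letters are not within them.

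The libraries held 23649233 to 33202086 counts, and CM libraries were deeper on average (29419000 ± 3575600 against 24986000 ± 1011900, mean ± SD, n = 5 and 5; two-sided exact permutation test p = 0.0476). Defining LSK genes were abundant in every library, with Kit at 702 to 1001 and Ly6a (Sca-1) at 43.6 to 70.3 CPM (counts scaled to the library size, with TMM factors), and the 10 genes of the LSK list summed to 3316 to 4004 CPM. Of that list, 3 genes of stem cells were higher in CM/miR-126Δ/Δ at an unadjusted p under 0.05, with log2 fold changes of 0.31 for Hlf, 0.19 for Meis1 and 0.24 for Mecom (adjusted p of 0.661, 0.746 and 0.748, edgeR). Markers of cells that the sort removes were low, at 6.59 to 20.4 CPM summed over 8 T and B cell genes and 4.09 to 9.08 over 5 stromal and endothelial genes, with Cd3e at 0 to 2.61 and Ly6g at 0 to 0.831 CPM. The mature myeloid list ranged from 133 to 501 CPM, highest in CM/miR-126Δ/Δ mouse 4, the erythroid list from 16.8 to 147 with Hbb-bs at 0 in 9 libraries, and the mast and basophil list from 132 to 290. Only Itgam among the genes of these 5 lists had an unadjusted p under 0.05 (log2 fold change -0.35, adjusted p = 0.746). Xist and Y-linked genes gave 3 females and 2 males in each genotype.

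The genotypes differed in few genes, and neither p53 nor its inhibitors nor its targets were among them. A gene was called if its p reached 0.01, it differed 1.5-fold or more and its RPKM (CPM per kilobase of exon) averaged 1 or more in a genotype. By this rule 54 genes were called (0.288%), 36 of them higher (0.192%) and 18 lower (0.096%) in CM/miR-126Δ/Δ, and 2 genes had an adjusted p under 0.05 (0.0107%). None of the 10 genes was called and none had an adjusted p under 0.05, counts to be read against those small shares, and by DESeq2 there was likewise none under an adjusted p of 0.05. At an unadjusted p under 0.05 there was 1 of the 10, Trp53inp1, against 6.61% of all genes (3.32% lower and 3.29% higher) and 7.92% of the 11682 expressed genes, meaning those that averaged an RPKM of 1 or more in a genotype. The values of the genotypes overlapped for all 10 genes, and 1.38% of expressed genes had no overlap. On average 7 of the 10 were lower in CM/miR-126Δ/Δ, where 57.5% of expressed genes were, and the median log2 fold change of the 10 was -0.04 beside -0.02 for expressed genes. All p-values of differences are two-sided, from the quasi-likelihood test of edgeR with Benjamini-Hochberg adjustment over the 18747 genes, unless a permutation test is named.

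**Figure D1:**
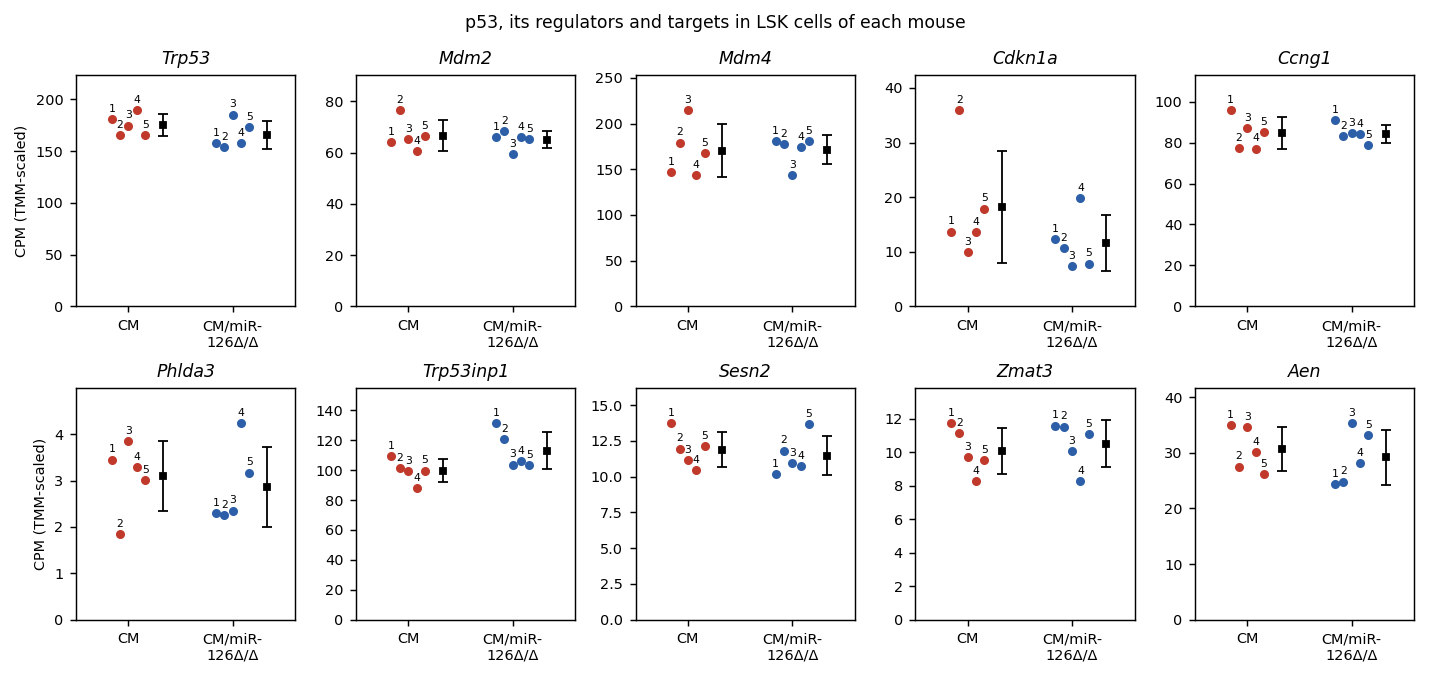
Expression of p53, its 2 inhibitors and 7 targets in LSK cells of each mouse, in TMM-scaled CPM on axes that start at 0. Points are mice with their numbers, red for CM and blue for CM/miR-126Δ/Δ, and black squares with bars are the mean and SD of 5 mice; the genotypes overlap for every gene, and Cdkn1a of CM mouse 2, at 36.0 CPM, lies far above the other mice.

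The 10 transcripts spanned a wide range of levels. Per exon length, Trp53 was the most abundant at 91.2 ± 6.67 RPKM (mean ± SD over 10 mice), above 96.6% of expressed genes, and Zmat3 the least at 1.32 ± 0.171 RPKM. The neighbours in the order of levels were compared within mice by an exact sign-change permutation test, two-sided, adjusted over 9 comparisons. The order itself was taken from the same values. These p-values cover the spread between mice and not any error in the listed exon lengths. Trp53 exceeded Ccng1 (24.2 ± 1.72 RPKM) in 10 of 10 mice (adjusted p = 0.00439, from the smallest p this exact test allows). Ccng1, Mdm4 (23.2 ± 2.99) and then Mdm2 (21.2 ± 1.52) and Trp53inp1 (19.6 ± 2.22) followed closely. Within this group Ccng1 and Mdm4 did not differ beyond the spread between mice (Ccng1 higher in 6 of 10, adjusted p = 0.396 in the exact test), Mdm4 exceeded Mdm2 in 8 of 10 mice (adjusted p = 0.0322, exact), and Mdm2 against Trp53inp1 missed the threshold (8 of 10, adjusted p = 0.0603, exact). Cdkn1a, at 7.32 ± 4.14 RPKM, was below Trp53inp1 in all 10 mice (adjusted p = 0.00439, exact) and could not be separated from Aen (5.86 ± 0.839; higher in 6 of 10, exact p = 0.520). Aen exceeded Sesn2 (4.40 ± 0.469) and Sesn2 exceeded Phlda3 (2.03 ± 0.525) in 10 of 10 mice each (adjusted p = 0.00439, exact), and Phlda3 exceeded Zmat3 in 9 of 10 (adjusted p = 0.0176, exact).

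**Figure D2:**
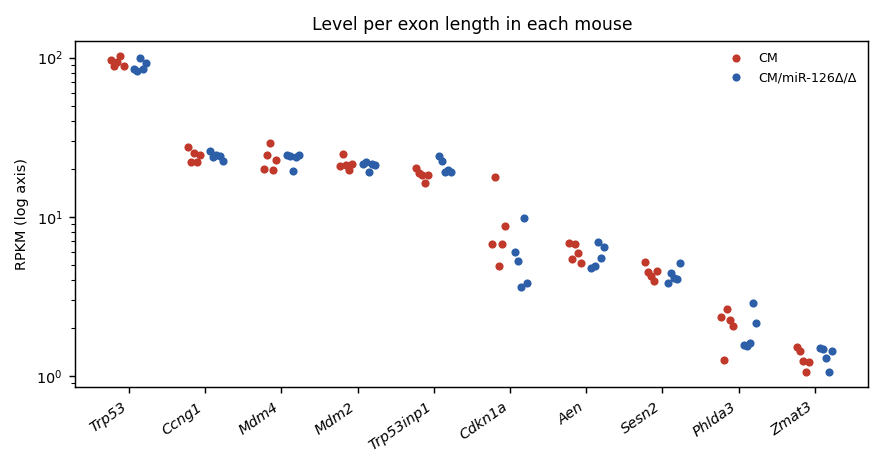
Level of each gene per exon length in every mouse, in RPKM on a log axis, ordered by the mean over the 10 mice. Red points are CM and blue points CM/miR-126Δ/Δ mice; Trp53, at 91.2 RPKM, stands above the group of Ccng1, Mdm4, Mdm2 and Trp53inp1, and Cdkn1a has the longest vertical spread.

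Trp53 (chr11:69580359-69591873, plus strand, mm10, as all gene positions here) was steady in both genotypes. In CM mice 1 to 5 its level was 181, 166, 175, 189.9 and 165 CPM, and in CM/miR-126Δ/Δ mice 1 to 5 it was 158, 154, 185, 158 and 173 CPM. Although 3 of the 5 CM/miR-126Δ/Δ mice lay below every CM mouse, the second highest of all 10 values was also from this genotype, in mouse 3. The means were 175 ± 10.5 and 166 ± 13.3 CPM (SD, n = 5 each), a fold of 0.944 with a 95% interval of 0.856 to 1.04 (log2 fold change -0.08, SE 0.0660, p = 0.227, adjusted p = 0.765, edgeR; exact permutation p = 0.214).

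Mdm2 (chr10:117688875-117710758, minus strand), which is an inhibitor of p53 and a target at once, was as steady. Its level was 64.2, 76.7, 65.4, 60.5 and 66.4 CPM in CM mice 1 to 5 and 66.1, 68.5, 59.3, 66.0 and 65.3 CPM in CM/miR-126Δ/Δ mice 1 to 5. CM mouse 2 was the highest and CM/miR-126Δ/Δ mouse 3 the lowest of the 10, with the other 8 within a narrow band. The fold was 0.977 (95% interval 0.886 to 1.08; log2 fold change -0.03, SE 0.0658, adjusted p = 0.919, edgeR; exact permutation p = 0.683).

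Mdm4 (chr1:132986105-133030587, minus strand) has no enzyme activity of its own towards p53 and works as a partner of Mdm2. It measured 146, 179, 215, 144 and 167 CPM in the CM mice and 180.5, 177, 143, 174 and 181 CPM in the CM/miR-126Δ/Δ mice. In CM it varied more from mouse to mouse (170.3 ± 29.0 CPM) than in CM/miR-126Δ/Δ (171 ± 15.9 CPM), where 4 mice lay close together and mouse 3 lay apart at 143 CPM. The means were nearly the same, with a fold of 1.01 (95% interval 0.862 to 1.17; log2 fold change 0.01, SE 0.104, adjusted p = 0.984, edgeR; exact permutation p = 0.952).

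Cdkn1a (chr17:29090979-29100722, plus strand) encodes p21, the cyclin-dependent kinase inhibitor through which p53 arrests the cell cycle, and it had the lowest fold and the widest spread of the 10. Its level was 13.7, 36.0, 9.91, 13.6 and 17.9 CPM in CM mice 1 to 5 and 12.3, 10.7, 7.31, 19.9 and 7.82 CPM in CM/miR-126Δ/Δ mice 1 to 5. CM mouse 2 stood at 1.81 times the next highest mouse, CM/miR-126Δ/Δ mice 3 and 5 were the lowest, and CM/miR-126Δ/Δ mouse 4 was second of all 10. Its biological coefficient of variation, the replicate scatter beyond counting noise, was 0.374, above 96.5% of expressed genes, whose median was 0.114. The means were 18.2 ± 10.3 and 11.6 ± 5.06 CPM (SD, n = 5 each), a fold of 0.637 with a 95% interval of 0.390 to 1.04 (log2 fold change -0.65, SE 0.329, p = 0.0675, adjusted p = 0.764, edgeR; exact permutation p = 0.230). The size of the difference rested on single libraries. Without CM mouse 2 the CM mean was 13.8 ± 3.26 CPM and the log2 fold change -0.25 (adjusted p = 0.830), without CM/miR-126Δ/Δ mouse 4 it was -0.92 (adjusted p = 0.391), and without CM/miR-126Δ/Δ mice 3 and 5 together, a choice made after the values were seen, it was -0.35 (adjusted p = 0.854), all by edgeR.

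Ccng1 (chr11:40748552-40755286, minus strand) encodes cyclin G1, a target that works back on Mdm2 through the phosphatase PP2A. Its level was 95.9, 77.2, 87.1, 77.1 and 85.3 CPM in CM mice 1 to 5 and 90.9, 83.3, 84.6, 84.1 and 78.6 CPM in CM/miR-126Δ/Δ mice 1 to 5. No mouse stood apart and the CM/miR-126Δ/Δ values lay inside the range of the CM values. The fold was 0.998 (95% interval 0.905 to 1.10; log2 fold change -0.0032, SE 0.0659, adjusted p = 0.990, edgeR; exact permutation p = 0.968), and its sign depended on the scaling of the libraries (0.0059 with RLE factors).

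Phlda3 (chr1:135766085-135769134, plus strand) encodes a small lipid-binding protein that keeps AKT from the membrane. With 54 to 114 counts per library it was the most shallowly measured of the 10. It stood at 3.45, 1.85, 3.85, 3.29 and 3.00 CPM in CM mice 1 to 5 and at 2.30, 2.26, 2.35, 4.24 and 3.17 CPM in CM/miR-126Δ/Δ mice 1 to 5. The highest mouse was CM/miR-126Δ/Δ mouse 4 and the lowest CM mouse 2, and the genotypes overlapped. At this depth the interval was wide, with a fold of 0.928 (95% interval 0.656 to 1.31; log2 fold change -0.11, SE 0.233, adjusted p = 0.932, edgeR; exact permutation p = 0.667).

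Trp53inp1 (chr4:11156441-11174379, plus strand), whose product is a stress-induced nuclear protein tied to cell death and autophagy, was the member with the smallest p. CM mice 1 to 5 had 109, 102, 99.2, 88.1 and 99.7 CPM and CM/miR-126Δ/Δ mice 1 to 5 had 131, 121, 104, 106 and 103 CPM. CM/miR-126Δ/Δ mice 1 and 2 lay above every CM mouse. The remaining 3 lay below CM mouse 1 and above every other CM mouse, and the lowest value was from CM mouse 4. The means were 99.6 ± 7.59 and 113 ± 12.5 CPM (SD, n = 5 each), a fold of 1.14 with a 95% interval of 1.01 to 1.27 (log2 fold change 0.18, SE 0.0772, p = 0.0318, adjusted p = 0.746, edgeR; exact permutation p = 0.0714). The difference thus failed the correction over all genes. Left out singly, CM mouse 4 and CM/miR-126Δ/Δ mice 1 and 2 each took the unadjusted p above 0.05, up to 0.0794, with the log2 fold change between 0.14 and 0.23 over the 10 omissions.

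Sesn2 (chr4:132492807-132510456, minus strand) encodes a sestrin, which restrains mTORC1 in stressed cells. Its level was 13.7, 11.96, 11.2, 10.5 and 12.1 CPM in CM mice 1 to 5 and 10.2, 11.8, 10.9, 10.8 and 13.7 CPM in CM/miR-126Δ/Δ mice 1 to 5. The highest value of each genotype was the same to the printed digits, and the fold was 0.964 (95% interval 0.819 to 1.13; log2 fold change -0.05, SE 0.110, adjusted p = 0.929, edgeR; exact permutation p = 0.595).

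Zmat3 (chr3:32334794-32365665, minus strand) encodes a zinc finger protein that binds RNA. It measured 11.7, 11.1, 9.70, 8.27 and 9.54 CPM in CM mice 1 to 5 and 11.6, 11.5, 10.1, 8.27 and 11.1 CPM in CM/miR-126Δ/Δ mice 1 to 5. Mouse 4 was the lowest in both genotypes. The fold was 1.04 (95% interval 0.865 to 1.26; log2 fold change 0.06, SE 0.126, adjusted p = 0.927, edgeR; exact permutation p = 0.587). Among the 10 genes Zmat3 alone overlapped another listed gene, by 177 bases with 4930429B21Rik on the opposite strand, which averaged 0.194 CPM.

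Aen (chr7:78895927-78911209, plus strand) encodes a nuclease that acts in apoptosis. Its level was 34.9, 27.5, 34.6, 30.0 and 26.2 CPM in CM mice 1 to 5 and 24.4, 24.8, 35.3, 28.1 and 33.1 CPM in CM/miR-126Δ/Δ mice 1 to 5. The highest and the lowest of the 10 mice were both CM/miR-126Δ/Δ, and the fold was 0.951 (95% interval 0.797 to 1.13; log2 fold change -0.07, SE 0.119, adjusted p = 0.901, edgeR; exact permutation p = 0.587).

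**Figure D3:**
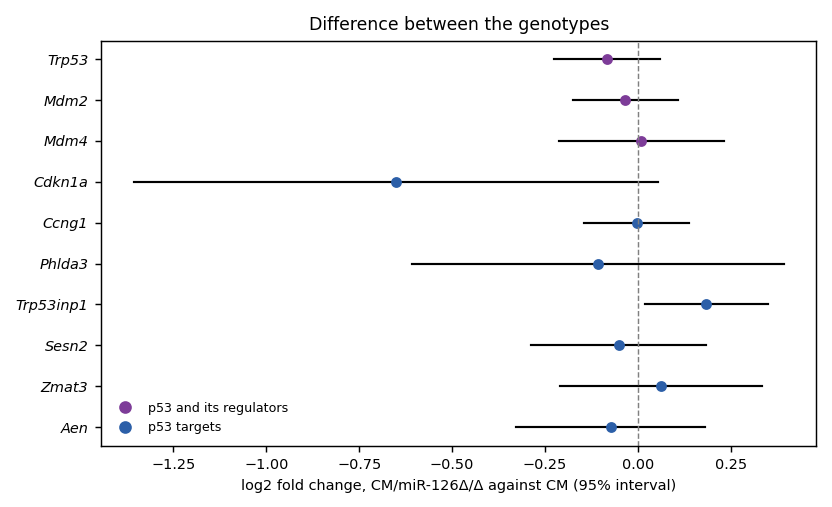
Log2 fold change of CM/miR-126Δ/Δ against CM for each of the 10 genes, with 95% intervals from the edgeR fit; purple points are Trp53, Mdm2 and Mdm4 and blue points the targets. The intervals of 9 genes include 0, that of Trp53inp1 (0.02 to 0.35) does not before adjustment, and that of Cdkn1a is the widest (-1.36 to 0.05).

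Genes driven by one factor can share their variation between animals, and the 7 targets were therefore compared over the 10 mice. They did not vary together as a block. Of 45 pairs among the 10 genes, 22 had a positive Pearson r of log2 CPM and the median r was -0.03, while of the 21 pairs of targets 10 were positive (median -0.04). No pair passed an adjusted p of 0.05 over the 45 pairs, and 5 had an unadjusted permutation p under 0.05. CM mouse 1 had 7 of 7 targets above their mean and was first of all mice for Ccng1, Sesn2 and Zmat3. CM mouse 2 was first for Cdkn1a and last for Phlda3, and CM mouse 4 was last for Ccng1, Trp53inp1 and Zmat3.

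By rank, the closest relations of Trp53 were with Aen and Mdm2, in opposite directions. Aen was higher where Trp53 was higher (r = 0.80, permutation p = 0.00931, adjusted p = 0.343; rho = 0.83, permutation p = 0.00485, adjusted p = 0.0984), and the relation held without CM mouse 4 and CM/miR-126Δ/Δ mouse 2, the mice farthest from the median of Trp53 (r = 0.90), and within each genotype (r = 0.57 in CM and 0.94 in CM/miR-126Δ/Δ, n = 5 each). Mdm2 was lower where Trp53 was higher (r = -0.64, permutation p = 0.0381, adjusted p = 0.343; rho = -0.82, permutation p = 0.0064, adjusted p = 0.0984), with r = -0.53 without those mice and -0.80 and -0.91 within CM and CM/miR-126Δ/Δ. Trp53inp1 also ran against Trp53 (r = -0.68, permutation p = 0.0261, adjusted p = 0.343; rho = -0.59), with r = -0.40 without them. The relation of Cdkn1a and Mdm2 rested on 2 mice (r = 0.71, permutation p = 0.0261, adjusted p = 0.343; r = -0.07 without CM mouse 2 and CM/miR-126Δ/Δ mouse 3), and Trp53inp1 with Zmat3 gave r = 0.67 (permutation p = 0.0324, adjusted p = 0.343) and 0.43 without CM mouse 4 and CM/miR-126Δ/Δ mouse 1. All 45 values share the same 10 libraries and their scaling.

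Cdkn1a, the most variable target, was then set beside other gene groups in the same libraries, a comparison chosen after its values had been seen. Immediate early genes such as Fos, Jun and Egr1 are switched on within minutes by growth factors and stress. The list used here holds 9 immediate early genes and the stress-induced chaperone genes Hspa1a and Hspa1b, and these 11 genes summed to 2657, 5462, 1035, 2724 and 3221 CPM in CM mice 1 to 5 and to 2182, 2046, 277, 2883 and 359 CPM in CM/miR-126Δ/Δ mice 1 to 5. CM mouse 2, the highest in Cdkn1a, was the highest here, and CM/miR-126Δ/Δ mice 3 and 5, the lowest in Cdkn1a, were the lowest. Across the 10 mice Cdkn1a followed the mean log2 level of these genes with r = 0.90 (permutation p = 0.00029, adjusted p = 0.0058 over 20 relations of the 10 genes with the immediate early and the interferon-stimulated lists) and rho = 0.96 (permutation p = 6.0e-05). The relation stood without CM/miR-126Δ/Δ mice 3 and 5 (r = 0.95) and within each genotype (r = 0.94 in CM and 0.94 in CM/miR-126Δ/Δ, n = 5 each), and with the 9 immediate early genes alone r was 0.86. The other 9 genes gave r from -0.47 to 0.62 with adjusted p of at least 0.428. Over the 5 mice of a genotype some of them also gave a large r. It was -0.94 in CM and 0.34 in CM/miR-126Δ/Δ for Phlda3, -0.33 and -0.92 for Trp53, and 0.74 in each for Mdm2. The genes of the list were lower on average in CM/miR-126Δ/Δ for 11 of 11, with a median log2 fold change of -1.03 and no gene at an unadjusted p under 0.05 (-0.91 for Dusp1, -1.43 for Fos and -0.74 for Jun, with adjusted p of 0.764, 0.764 and 0.765 by edgeR). The RNA concentrations in the labels were 16.1 and 18.2 ng/µl for CM/miR-126Δ/Δ mice 3 and 5, the lowest of the 10, and averaged 30.0 ± 7.78 in CM and 21.0 ± 5.13 in CM/miR-126Δ/Δ (exact permutation p = 0.0794). The same mice were the lowest in the sum of the 8 T and B cell genes, at 6.97 and 6.59 CPM in CM/miR-126Δ/Δ mice 3 and 5. This sum reached 20.4 CPM in the other CM/miR-126Δ/Δ mice and was 11.3 to 14.7 CPM in the CM mice. Most of it in mice 3 and 5 was Cd4, at 6.23 and 5.85 CPM, which went the other way. Cd4 was 3.80 to 4.44 CPM in the other CM/miR-126Δ/Δ mice and 3.53 to 8.84 CPM in the CM mice. The remaining genes of the list were each lowest in CM/miR-126Δ/Δ mice 3 and 5, with Cd3e at 0 in mouse 5. The part of the immediate early genes, of T and B cell RNA and of RNA amount in the values of Cdkn1a was not tested. None of the 10 relations with the interferon-stimulated list, which was of interest because the mice had received poly(I:C), passed an adjusted p of 0.05. The lowest was 0.228, for Mdm2 (r = -0.71), which gave r = -0.12 without CM mouse 2 and CM/miR-126Δ/Δ mouse 3.

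**Figure D4:**
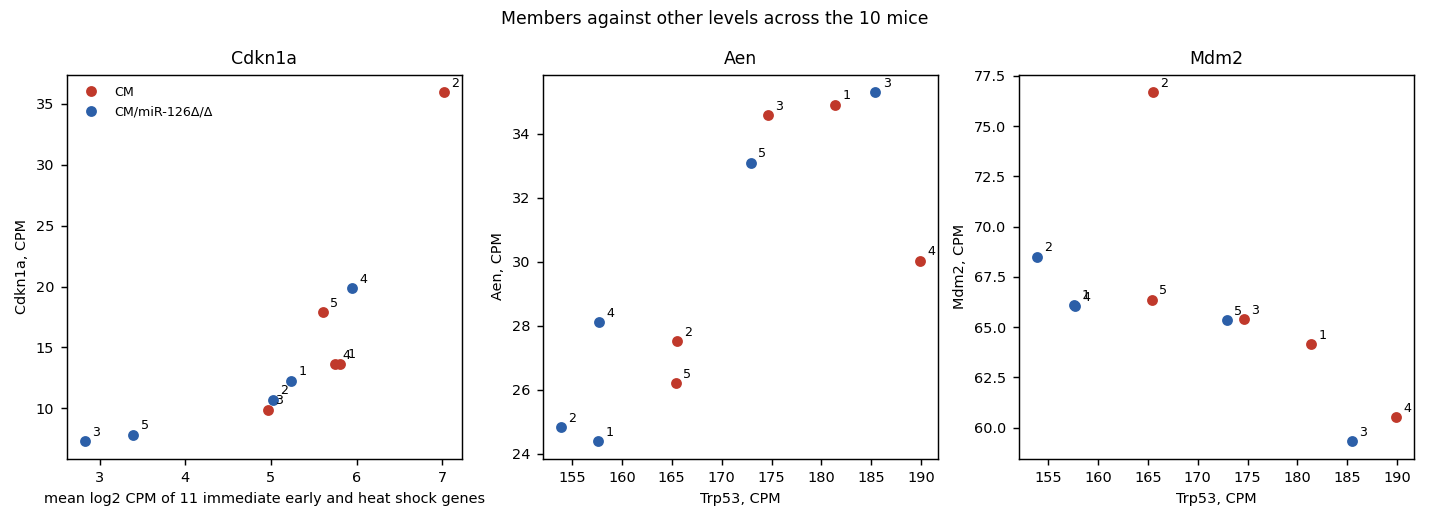
Relations across the 10 mice, numbered within genotype: Cdkn1a in CPM against the mean log2 CPM of 11 immediate early and heat shock genes (left, r = 0.90 for log2 Cdkn1a), Aen against Trp53 (middle, r = 0.80 for log2 values) and Mdm2 against Trp53 (right, r = -0.64), all levels in CPM on axes that do not start at 0. Red points are CM and blue points CM/miR-126Δ/Δ mice; only the first passed its adjustment.

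As a description, the genes whose log2 level was most like that of Trp53 over the 10 mice, among the other 11681 expressed genes, were Drg2 (r = 0.95), Klhdc3 (r = 0.95) and Ino80e (r = 0.93), and Aen stood at rank 175. For Cdkn1a they were Nr1h2, Nfkbia and Wsb1 (r = 0.97 each), with Mdm2 at rank 560 and Trp53 at rank 8824.

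A wider set of 76 genes from 5 lists of p53 biology, drawn from general knowledge, held no gene that differed by either rule. All 76 were fitted, none was called and none had an adjusted p under 0.05 (lowest 0.736, edgeR). At an unadjusted p under 0.05 there were 4, or 5.26%, beside the 6.61% of all genes. Of the 67 that were expressed, 37 were lower in CM/miR-126Δ/Δ (55.2%, against 57.5% of all such genes), with a median log2 fold change of -0.02.

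Among 27 regulators of p53, 2 were higher and 1 lower at an unadjusted p under 0.05, and the median log2 fold change was 0.01. Cop1, a ubiquitin ligase for p53, had 33.7 ± 3.15 CPM in CM and 40.6 ± 5.52 in CM/miR-126Δ/Δ (log2 fold change 0.27, SE 0.0968, adjusted p = 0.736, edgeR). Hipk2, a kinase that phosphorylates p53, gave a log2 fold change of 0.20 (adjusted p = 0.750, edgeR). Prmt5, an arginine methyltransferase that modifies p53, had 107.9 ± 7.31 and 95.5 ± 7.57 CPM (log2 fold change -0.18, SE 0.0656, adjusted p = 0.746, edgeR). None of these differences passed the correction.

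The 17 cell cycle and DNA repair targets held no gene at an unadjusted p under 0.05 (median log2 fold change -0.05). The smallest p belonged to Pcna, the sliding clamp of DNA replication (-0.15), to Plk2, a kinase that is also known as a target of miR-126 (-1.11, SE 0.660), and to Btg2, an inhibitor of proliferation (-0.50, SE 0.301), each with an adjusted p of 0.765 by edgeR. Plk2 and Btg2 had the pattern of Cdkn1a over the mice. Plk2 was 12.4, 37.0, 2.87, 7.80 and 8.95 CPM in CM mice 1 to 5 and 10.3, 10.5, 0.958, 8.79 and 1.28 CPM in CM/miR-126Δ/Δ mice 1 to 5, and Btg2 was highest in CM mouse 2 at 230.1 CPM and lowest in CM/miR-126Δ/Δ mice 3 and 5 at 51.2 and 53.4 CPM. Among 8 cyclin and mitotic genes that p21 holds down through the DREAM complex, 2 were lower and none had an unadjusted p under 0.05 (median log2 fold change 0.04, with 0.08 for Plk1, 0.10 for Ccnb2 and 0.09 for Ccnb1, adjusted p of 0.765, 0.765 and 0.887 by edgeR).

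Of 13 apoptosis targets, none had an unadjusted p under 0.05. Of the 10 expressed, 8 were lower in CM/miR-126Δ/Δ (median log2 fold change -0.05), where 57.5% of all expressed genes were. The sum of the list was 341 to 353 CPM in CM and 333 to 338 CPM in CM/miR-126Δ/Δ, without overlap. This difference of sums was not tested, and the sum of no other list here was without overlap. The mean log2 CPM of the same genes did overlap, at 3.42 to 3.63 in CM and 3.26 to 3.51 in CM/miR-126Δ/Δ. Bax, the pore-forming effector, gave -0.17, Bid, which activates it, -0.14 and Pmaip1, which encodes Noxa, -0.62 at 2.24 ± 1.02 and 1.45 ± 0.695 CPM, each with an adjusted p of 0.765 by edgeR. Pmaip1 was not among the expressed genes, at 0.846 RPKM in CM and 0.548 in CM/miR-126Δ/Δ.

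Among 13 targets in metabolism, autophagy and redox control, Ddit4, an inhibitor of mTORC1, was lower at an unadjusted p under 0.05, with 21.7 ± 5.35 CPM in CM and 16.9 ± 1.73 in CM/miR-126Δ/Δ (log2 fold change -0.36, SE 0.147, adjusted p = 0.746, edgeR). CM mice 1 and 2, at 26.0 and 28.7 CPM, were above the other 8 mice, which lay between 14.7 and 19.7 CPM. Ptprv (-0.31) and Gls2, a glutaminase measured at only 0.217 and 0.298 CPM on average (0.47), followed with adjusted p of 0.765 and 0.797 by edgeR, and the median log2 fold change of the list was -0.05. The 6 noncoding and stem cell targets had no gene at an unadjusted p under 0.05 (median -0.06). Trp53cor1, the lincRNA-p21 transcript, gave 0.26 and Gfi1, a repressor that keeps stem cells quiescent, -0.11, with an adjusted p of 0.765 each by edgeR, and Mir34a had a single count in 1 library.

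The 9 interferon-stimulated genes were higher on average in CM/miR-126Δ/Δ for 8 of 9 (median log2 fold change 0.18), none at an unadjusted p under 0.05 (0.61 for Ifit3 and 0.20 for Rsad2, with adjusted p of 0.764 and 0.765 by edgeR).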

How the data were processed

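LSK RNA from 10 mice was depleted of rRNA and sequenced with single reads. Per the study's methods, Trimmomatic 0.38 and then FASTP 0.19.4 were used for trimming, Tophat 2.0.8 for alignment (mm10) and HTSeq 0.6.1 for counting on RefSeq genes. The authors deposited these counts, whole reads for each gene, without normalization. The strand setting of the counting is not given in the sources used here. A second deposited table equals the counts divided by 1 constant per library and was not used.

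Counts of 18747 genes with at least 1 count were tested in edgeR 4.0.16 under R 4.3.3 (TMM, glmQLFit and glmQLFTest in the edgeR 3 form, genotype only). RPKM is CPM, scaled by TMM, per kilobase of the listed exon length. Single genes were also compared by exact permutation over the 252 labelled groupings (smallest two-sided p 0.00794), and correlations of log2 CPM (prior count 2) used 100000 resamples with scipy 1.17.1. Depth sets a floor of 3 counts, 0.0904 to 0.127 CPM; floors cover counting error only. Mice are taken as separate animals from their numbers in the labels. The 10 genes were all described; of each pathway list the 3 genes with the smallest p were named, and of the marker lists those with an unadjusted p under 0.05; some list genes are not reported here by name. The genes, lists and tests were chosen with earlier results of these data known. Alternatives were RLE factors, DESeq2 1.42.0, other filters, the edgeR 4 form, a sex term, a replicate block, omission of Rn45s, and single libraries left out.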

Additional observations from a re-analysis of the deposited data

Results flagged for a closer look

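Mdm4 in CM/miR-126Δ/Δ mouse 3, at 143 CPM, lay far below the other 4 mice of its genotype, with a gap of 0.82 of the range of the 5 values against a limit of 0.71. It was the only one of 20 sets of 5 mice, 1 per gene and genotype, to pass this limit, and chance alone gives about 1. The same mouse was also lowest of all 10 in Cdkn1a and Mdm2 and highest in Aen. Its library had the highest share of counts on Rn45s, an rRNA precursor gene, at 22.6% against 14.8 to 18.6% in the others. It also had the lowest TMM factor (0.922) and the fewest genes with a count (15983). The part of these in its values was not tested.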

How the results depend on the processing

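None of the 10 genes was called or had an adjusted p under 0.05 under any alternative (lowest adjusted p 0.307), and 170 of 190 fold changes over 19 alternatives kept their sign. Ccng1, near 0, changed sign to 0.0059 with RLE factors and with DESeq2, 0.0149 with filterByExpr, 0.0169 with only genes of RPKM at least 1, 0.0008 without Rn45s and 0.029 without CM/miR-126Δ/Δ mice 3 and 5, a choice made after seeing the data, as did Mdm2 (0.0081). With single libraries left out, the ranges crossed 0 for Ccng1 (-0.0342 to 0.0587), Mdm4 (-0.034 to 0.1191), Mdm2 (-0.0544 to 0.0216) and Sesn2 (-0.1233 to 0.0172). The 54 genes called became 111 with no RPKM requirement and 33 to 128 with single libraries left out, and the 2 with an adjusted p under 0.05 became 4 with filterByExpr, with only genes of RPKM at least 1 and with a sex term, 10 without CM/miR-126Δ/Δ mice 3 and 5, 47 with DESeq2 and 1 to 7 with single libraries left out; the cause was not tested. Without CM/miR-126Δ/Δ mice 3 and 5, Trp53 gave -0.16 and Trp53inp1 0.26 (edgeR, unadjusted p of 0.0318 and 0.00671, adjusted p of 0.817 and 0.722).

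The numbers 1 to 5 recur in both genotypes, and no source says what a number shares. Same-numbered mice had consecutive sample numbers in the labels and the same sex by Xist and Y-linked genes. They deviated from their group means with correlations of 0.176, 0.164, 0.430, 0.292 and -0.0035 over 13442 genes. Not every mouse correlated best with its own number. With the replicate block, 115 genes were called, 20 had an adjusted p under 0.05 and 8.89% an unadjusted p under 0.05, and the 10 genes held 2 of the latter, Trp53inp1 (adjusted p = 0.307) and Cdkn1a (log2 fold change -0.60, adjusted p = 0.512). Of the wider p53 lists 12 of 76 genes, and of the immediate early list 8 of 11 (each of these 8 lower in CM/miR-126Δ/Δ) had an unadjusted p under 0.05 with the block (edgeR), and none an adjusted p under 0.05. Phlda3, at 54 to 114 counts, is limited most by depth.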

Other observations

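Other parts of the p53 system were at the edge of detection in these LSK cells. Cdkn2a, whose Arf product inhibits Mdm2, reached at most 0.0807 CPM in any library, Trp63 0.0435 CPM and Trp73 0.0661 CPM, all below the level of 3 counts in the libraries that held them. Trp73 had reads in 3 CM and in no CM/miR-126Δ/Δ library, at levels too low to compare. Sfn, a target that arrests cells with damaged DNA and is best known in epithelia, was measured in every library at 6.17 to 9.29 CPM. Neat1, a long noncoding RNA and p53 target, ranged from 165 to 444 CPM with overlap of the genotypes.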
